A study of Mus musculus with 8 samples.

Results

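Most of the genes described here encode enzymes and carriers with which liver mitochondria burn fatty acids and make ketone bodies. The set holds 31 genes, given by their symbols, of the 22564 genes listed for the series, and it is read by step: the carnitine shuttle, the acyl-CoA dehydrogenases, the acyl-CoA synthetases of medium-chain acids, the later steps of the oxidation cycle, electron transfer, ketone bodies and uncoupling. Liver RNA was sequenced in 4 libraries labelled db/db and 4 control libraries labelled C57BL/6, and both groups are labelled untreated. The db/db mouse carries a defect of the leptin receptor in all of its tissues, overeats, and becomes obese and diabetic, which makes it a genetic model of fatty liver. The question is how gene expression in the liver of this model differs from that of control mice. Per the methods of the study, its db/db mice were younger at purchase than its C57BL/6J mice and were supplied by a different breeder, and no age at tissue collection is stated for them. The methods leave unsaid if the control livers used here are from those C57BL/6J mice. Neither the labels nor the methods name the inbred background of the db/db mice. If the groups differ in source, age or background, these cannot be told apart from the leptin receptor defect. Whether every library is from its own mouse is not stated either, and p-values measure only the spread between these libraries, which may be technical.

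In mitochondrial beta-oxidation, long-chain acyl groups enter the matrix bound to carnitine and are shortened by repeated rounds of dehydrogenation, hydration, a further dehydrogenation and cleavage by a thiolase. Electrons from the acyl-CoA dehydrogenases pass through the electron transfer flavoprotein to the respiratory chain. In the liver much of the acetyl-CoA is made into acetoacetate and beta-hydroxybutyrate, the ketone bodies exported to other tissues in fasting. The nuclear receptor PPAR-alpha, with the coactivator PGC-1-alpha, is a known inducer of many of these genes.

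The deposited values are FPKM, a fragment count divided by transcript length and by library size, which can therefore be compared between genes. A gene was tested with limma on log2(FPKM + 1) where at least 4 of the 8 libraries reached 1 FPKM, and it was called changed at a Benjamini-Hochberg adjusted p under 0.05 over all 9863 tested genes. Fold changes are given on this log2 scale as db/db minus control, and they understate the change of weakly expressed genes. Levels are means ± SD with n = 4 libraries per group. Read totals are not part of an FPKM table. Relative depth was read as the inverse of the most frequent ratio between low values of a library and of control 1. It ranged from 0.81 to 1.1 times that of control 1. In bulk liver, fewer cells of a type and less RNA per cell cannot be told apart.

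Compared with the control group, 14 of the 30 tested members were significantly higher in db/db livers, 1 was significantly lower, and 15 did not pass. The higher share was 46.7%, beside 16.0% of all tested genes, and the lower share was 3.33%, beside 11.6%. The members that rose were Crat of the shuttle, the dehydrogenases Acads, Acadm, Acad9, Acad10 and Acad11, the synthetase Acsm5, 6 genes of the later steps and Etfdh of electron transfer. The member that fell was Acsm1, another medium-chain synthetase. The median log2 fold change over the tested members was 0.36, beside 0.04 over all tested genes and −0.02 over the 1346 tested genes with a mean of at least 50 FPKM. Library by library, the summed level of the 31 members was 4090, 4308, 4465 and 4930 FPKM in db/db 1 to 4 and 3626, 3516, 3407 and 3536 FPKM in control 1 to 4. These sums did not overlap, and they made up 0.727% to 0.819% of all FPKM in db/db and 0.503% to 0.551% in control libraries. The total of all FPKM was itself lower in db/db, at 555661 to 602391 beside 641355 to 676884 in control libraries. The shares therefore differ in part through that total. The changes were moderate in size. The study used a logFC of 1.5 with an unadjusted p under 0.05 and states no base beside this threshold. Its supplement counts genes as changed that lie below this value on the log2 scale, so a log2 reading would have dropped them. Taken as a 1.5-fold change, a reading added after the values were seen, 10 members passed as higher (Crat, Acads, Acadm, Acad9, Acad10, Acad11, Acsm5, Hadh, Decr1 and Etfdh) and none as lower, beside 10.1% and 7.43% of tested genes. Taken as log2, no member passed in either direction, beside 1.54% of tested genes higher and 1.21% lower. By limma, 17 members were higher and 1 was lower at an unadjusted p under 0.05 with no fold threshold, beside 22.9% and 16.8% of all tested genes.

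**Figure D1:**
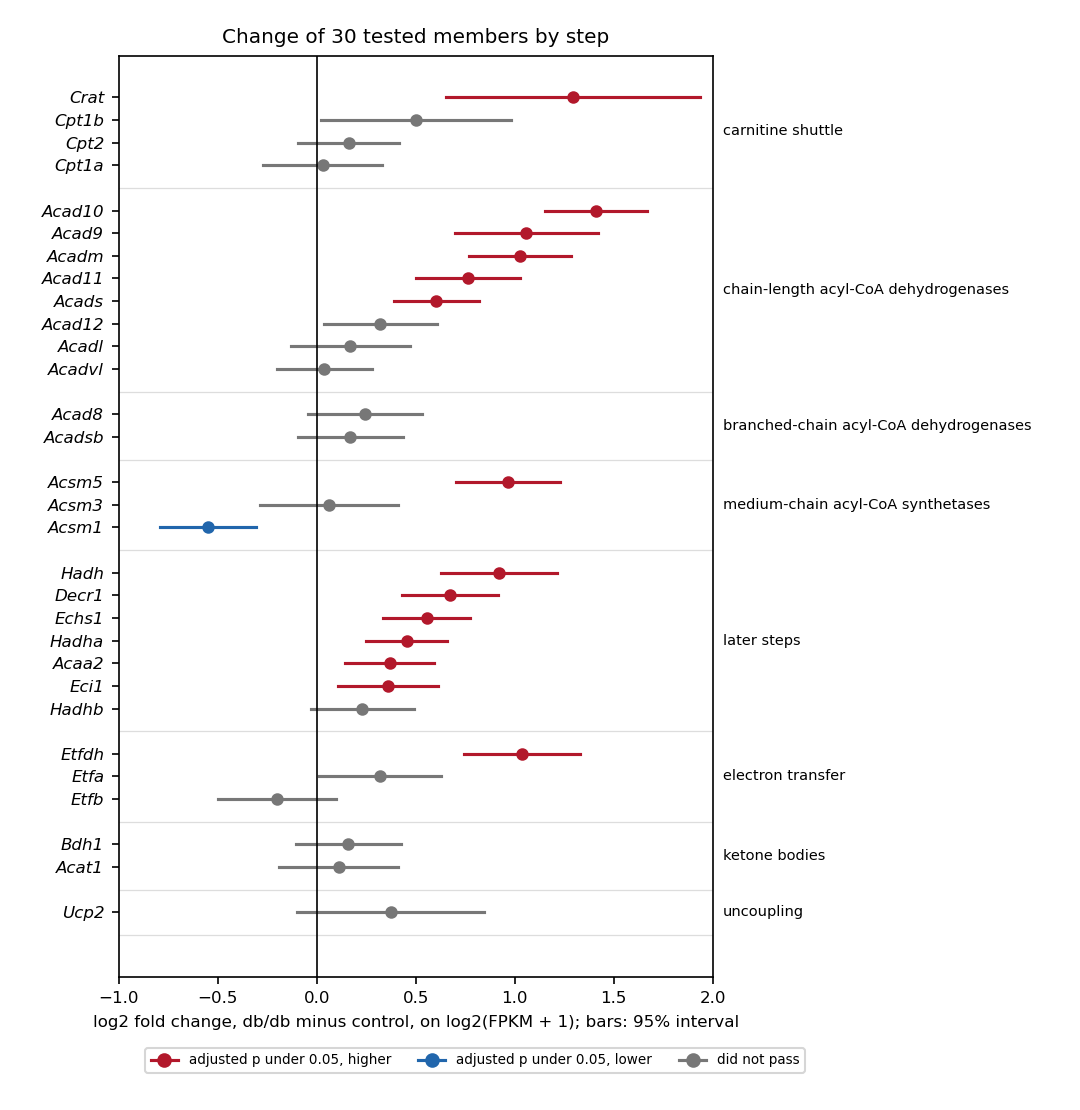
Log2 fold change (x axis, db/db minus control, on log2(FPKM + 1)) of each of the 30 tested members (y axis, grouped by step), with points for the estimate and bars for its 95% interval. Red marks the 14 genes that rose, blue the 1 that fell and grey the 15 that did not pass, with Acad10 at 1.41 and Acsm1 at −0.55 at the ends.

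All 14 members that rose were higher in every db/db library than in every control library, and Acsm1 was lower in every db/db library. Among all tested genes, 17.3% did not overlap in the higher direction and 12.1% in the lower. The members differed in which libraries stood high or low. Db/db 1 held the lowest value of its group for 17 of the 31 members and db/db 4 the highest for 16, while control 3 held the lowest of its group for 18.

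**Figure D2:**
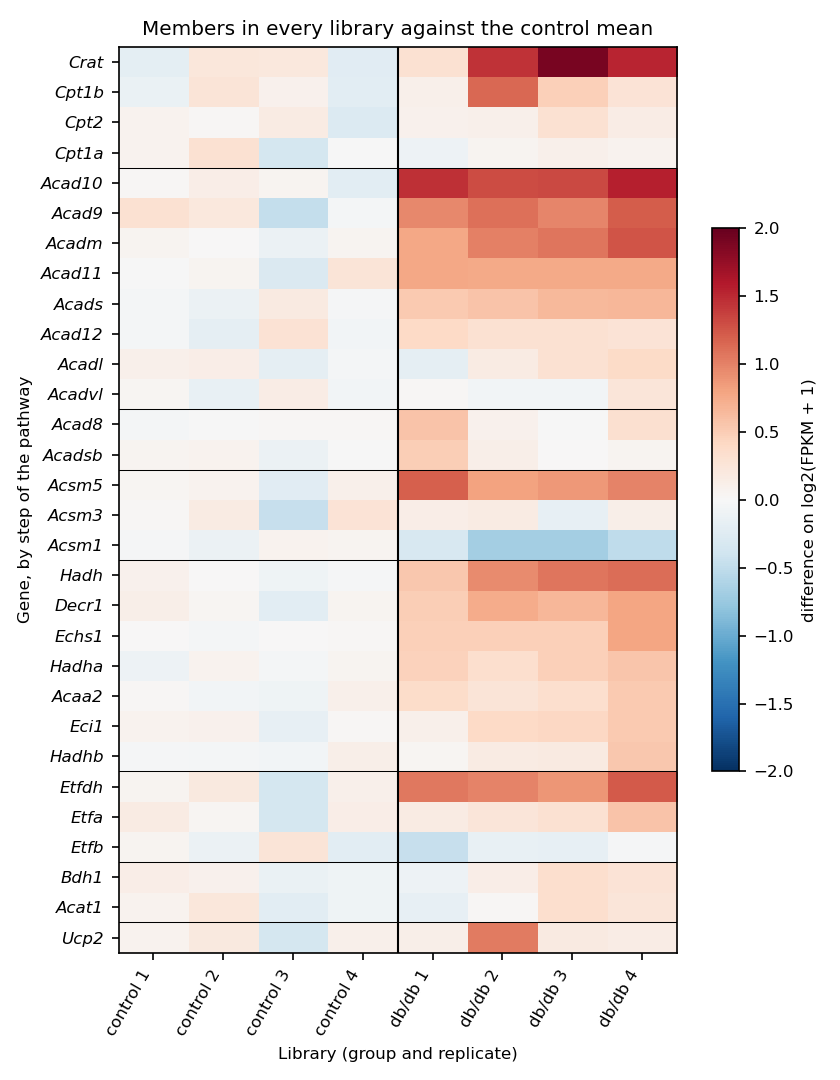
Difference of each library (x axis, group and replicate) from the control mean on log2(FPKM + 1) (colour) for the 30 tested members (y axis, by step). Red runs across all 4 db/db libraries for genes such as Acad10, Acadm and Etfdh, while Crat is weaker in db/db 1 and Ucp2 stands out in db/db 2.

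Sequence at the gene starts was read for the members that have an entry in the RefSeq promoter table (build GRCm38.p6, the same coordinates as mm10), which spans 250 bases before to 50 bases after a start. It matched 25 of the 31 members with 27 promoters. The median promoter of the members was 60.3% G or C and held 17 CG steps, beside 52.7% and 7 over all promoters. The synthetase genes of the Acsm family lay at the low end, with 1 CG step in Acsm5 and 2 in Acsm1, and Acad10 at the high end with 45. The GC box GGGCGG, on either strand, was present in 59.3% of the member promoters and 35.7% of all 32851 promoters, and the CCAAT box in 37.0% and 37.4%. The member promoters are not all separate. Those of Hadha and Hadhb share 228 of their 300 bases, so a box there counts for both, and Acsm2 and Bdh1 have 2 promoters each. PPAR-alpha binds with its partner RXR to a direct repeat of the hexamer AGGTCA with a spacer of 1 base. The repeat AGGTCANAGGTCA was searched on both strands. Within 2 mismatches it was matched by 2 of the 27 member promoters and by 3.86% of all promoters, and within 3 mismatches by 9 of the 27 and by 24.65% of all. The hexamer alone, which lies within the repeat, was present in 18.5% of the member promoters and 16.3% of all.

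The following stretches show the closest matches to the repeat, the hexamer in the promoter of Acadm, and the GC box next to Hadhb in the gap it shares with Hadha. Capitals mark the hexamer, the GC box or, for Echs1 and Etfa, the whole window compared with the repeat, its spacer and 2 mismatched letters included, and each stretch is written 5′ to 3′ on the strand of the gene, or on the plus strand for the shared gap.
Echs1, chr7:140116484-140116512, minus strand: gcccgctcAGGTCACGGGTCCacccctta
Etfa, chr9:55512300-55512328, minus strand: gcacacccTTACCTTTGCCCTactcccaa
Acadm, chr3:153944879-153944893, minus strand: gTGACCTtcgggctc
Hadha and Hadhb, chr5:30155216-30155245, plus strand: cgcggtgatggcGGGCGGggcgagaggggg
The Echs1 match lies 83 to 71 bases before the RefSeq start and reads forward, and the Etfa match lies 77 to 65 bases before its start on the reverse strand. Of these genes Echs1, Acadm and Hadha rose, whereas Etfa and Hadhb did not pass. A match is a string of letters and was not tested for binding.

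Of the 4 members of the carnitine shuttle, 1 rose and 3 did not pass. Cpt1a, the liver form of carnitine palmitoyltransferase 1 and the regulated entry point of long-chain oxidation, stood at 57.8, 64.6, 66.8 and 65.4 FPKM in db/db 1 to 4 and at 65.1, 77.2, 48.5 and 61.6 FPKM in control 1 to 4. The controls spanned the whole db/db range, and the log2 fold change of Cpt1a was 0.03 (95% interval −0.27 to 0.33, limma adjusted p = 0.891). Cpt2, which returns the acyl group to coenzyme A in the matrix, had 73.5 ± 5.41 FPKM in db/db and 65.9 ± 8.32 FPKM in control livers (limma adjusted p = 0.328). Cpt1b, the muscle form, was rare in comparison, with a ratio of Cpt1a to Cpt1b of 41.6 to 81.3 in control libraries and 18.4 to 49.0 in db/db libraries. Its level was 1.18, 3.52, 1.85 and 1.48 FPKM in db/db 1 to 4 and 0.854, 1.45, 1.17 and 0.758 FPKM in control 1 to 4, and its difference of 0.50 did not pass (limma adjusted p = 0.112). The value of Cpt1b is uncertain: only 20.3% of its 31-base exon words occur in no other annotated gene, because most of its exons are also annotated to another gene on the same strand, Gm44502, which was not analysed here. The 6 markers of striated muscle were at or near 0 in all libraries, with a sum of at most 0.00966 FPKM in db/db and 0.0959 FPKM in control livers.

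Crat, carnitine acetyltransferase, which transfers acetyl and other short acyl groups to carnitine, was the shuttle gene that rose (chr2:30400471-30415813). Crat measured 8.18, 19.2, 26.8 and 20.3 FPKM in db/db 1 to 4 and at 5.45, 7.69, 7.57 and 5.32 FPKM in control 1 to 4. Db/db 1 lay just above the highest control, and the other db/db libraries lay far above it. The log2 fold change of Crat was 1.29 ± 0.29 (SE, limma adjusted p = 0.00781), and it lay between 1.09 and 1.62 across the alternative settings.

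The acyl-CoA dehydrogenases take the first step of each round and differ in the chain length they prefer. Apart from the 2 of branched-chain amino acid breakdown, described below, 8 were measured. Of these 8, 5 rose, and Acadl, Acadvl and Acad12 did not pass. Acadm, the medium-chain dehydrogenase (chr3:153922357-153944632), rose to 317 ± 43.7 FPKM from 154 ± 8.89 FPKM. Its values were 263, 310, 325 and 369 FPKM in db/db 1 to 4, and 161, 155, 141 and 159 FPKM in control 1 to 4. The lowest db/db library lay well above all controls, and the log2 fold change was 1.03 ± 0.12 (SE, limma adjusted p = 0.000134). Acads, the short-chain dehydrogenase, had 82.6, 85.4, 90.5 and 91.7 FPKM in db/db 1 to 4 and 55.8, 52.7, 64.7 and 56.3 FPKM in control 1 to 4, a log2 fold change of 0.60 (limma adjusted p = 0.00119).

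Acadl and Acadvl, the long-chain and very-long-chain dehydrogenases, overlapped between the groups. Acadl stood at 92.8, 119, 131 and 138 FPKM in db/db and at 113, 116, 92.6 and 102 FPKM in control 1 to 4, with a log2 fold change of 0.17 (95% interval −0.13 to 0.47, limma adjusted p = 0.388). Acadvl had 185 ± 18.6 FPKM in db/db and 180 ± 15.7 FPKM in control livers, and its interval ran from −0.20 to 0.28. Within each library the ratio of Acadm to Acadl was 2.48 to 2.84 in db/db and 1.34 to 1.56 in controls. This ratio does not depend on how a library is scaled, and was chosen after the values were seen, so it has no test. Acadvl overlaps Dvl2 on the opposite strand, which leaves 66.8% of its exon words unique, and Dvl2 was at most 1.94 FPKM in any library.

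The more recently described dehydrogenases Acad9, Acad10 and Acad11 all rose. Acad10 (chr5:121621026-121660514) had the largest log2 fold change of the members and the smallest adjusted p in this fit. With array weights Crat had the larger change (1.504 beside 1.390), as it did without db/db 1 (1.623 beside 1.394). Its level was 18.2, 16.2, 16.4 and 19.4 FPKM in db/db 1 to 4 and at 6.06, 6.66, 6.22 and 4.99 FPKM in control 1 to 4. Every db/db value lay far above every control value, and the log2 fold change was 1.41 ± 0.12 (SE, limma adjusted p = 1.42e-05). Acad9, which also serves in the assembly of respiratory complex I, had 27.6, 30.4, 28.0 and 33.0 FPKM in db/db 1 to 4 and 17.2, 16.0, 9.56 and 13.3 FPKM in control 1 to 4, a log2 fold change of 1.06 (limma adjusted p = 0.000929). Of the exon words of Acad9 79.4% are unique, and it overlaps Gm43079 on the same strand, which was not analysed here.

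Acad11 (chr9:104063377-104127725) was the most even gene of the set among db/db libraries, at 161 ± 0.628 FPKM, while the controls of Acad11 spread from 76.9 to 113 FPKM. The rise was 0.76 on the log2 scale (limma adjusted p = 0.000918). Acad12 lies beside Acad10, with 2.088 kb between them, and was weakly expressed, at 1.41 to 1.60 FPKM in db/db and 0.742 to 1.41 FPKM in control libraries. It entered the test through the 4 db/db libraries and 1 control, and did not pass (limma adjusted p = 0.0895, and 0.0288 without control 3). The neighbours share sequence, with 75.8% of the exon words of Acad10 and 75.3% of those of Acad12 unique, and how reads were divided between them is not stated.

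Acadsb and Acad8, dehydrogenases of branched-chain amino acid breakdown, did not pass. Acad8 stood at 30.6, 21.6, 20.1 and 25.5 FPKM in db/db 1 to 4, beside 19.6 to 20.6 FPKM in controls, and Acadsb at 69.2 FPKM in db/db 1 with 49.6 to 53.5 FPKM in the other db/db libraries and 45.3 to 51.6 FPKM in controls. In both genes db/db 1 was the highest library, the reverse of its place for Acadm and Hadh.

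**Figure D3:**
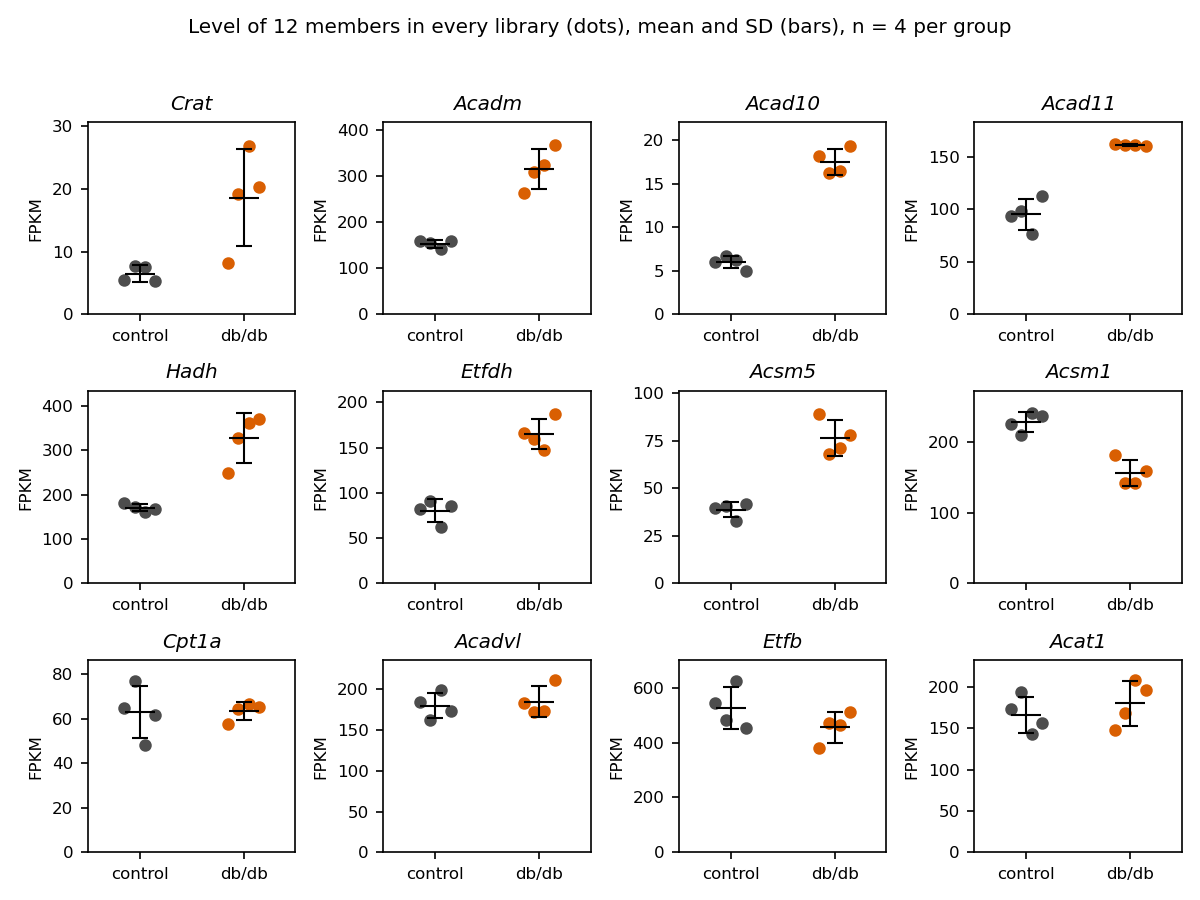
FPKM (y axis, from 0) in each of the 4 control and 4 db/db libraries (x axis) for 12 members, with dots for libraries, the horizontal mark for the mean and bars for the SD. Acadm, Acad10, Acad11, Hadh, Etfdh and Acsm5 are separated upward and Acsm1 downward, Crat has db/db 1 at 8.18 FPKM near the controls, and Cpt1a, Acadvl, Etfb and Acat1 overlap.

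The medium-chain acyl-CoA synthetases, which activate shorter acids inside the mitochondrion, lie on the plus strand of chromosome 7, in the order Acsm5, Acsm2, Acsm1 and Acsm3 over 268 kb. Of these 4 genes Acsm5 rose, Acsm1 fell, Acsm3 did not pass and Acsm2 was not tested. Acsm5 (chr7:119519463-119545551) stood at 89.0, 67.7, 71.3 and 77.9 FPKM in db/db 1 to 4 and at 39.7, 40.5, 32.7 and 41.5 FPKM in control 1 to 4. Its groups were far apart, with a log2 fold change of 0.97 ± 0.12 (SE, limma adjusted p = 0.00023). Acsm1 (chr7:119607026-119662515) stood at 181, 142, 141 and 159 FPKM in db/db 1 to 4 and at 224, 209, 240 and 237 FPKM in control 1 to 4. It was the only member that fell, by 0.55 on the log2 scale (SE 0.11, limma adjusted p = 0.00399). The ratio of Acsm1 to Acsm5 within a library was 1.98 to 2.09 in db/db and 5.16 to 7.33 in controls, a description chosen after the values were seen.

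Between them, Acsm2 was close to the limit of measurement, at 1.52, 0.203, 0.0373 and 0.496 FPKM in db/db 1 to 4 and 0.692, 0.942, 1.08 and 2.10 FPKM in control 1 to 4, and with 3 libraries at 1 FPKM it was not tested. Acsm3 had 54.3 ± 5.45 FPKM in db/db and 52.6 ± 11.0 FPKM in control livers, with an interval from −0.28 to 0.41. Acsm3 overlaps Eri2 on the opposite strand, and 63.2% of its exon words are unique. Eri2 was between 0.874 and 2.19 FPKM.

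Of the 7 genes of the later steps, 6 rose. Hadh, the dehydrogenase for shorter hydroxyacyl chains (chr3:131233419-131272101), stood at 249, 328, 361 and 371 FPKM in db/db 1 to 4 and at 182, 172, 160 and 169 FPKM in control 1 to 4. Db/db 1 was the lowest of its group and still above all controls, and the log2 fold change of Hadh was 0.92 ± 0.13 (SE, limma adjusted p = 0.000591). Decr1, the dienoyl-CoA reductase needed for polyunsaturated acids, had 93.5, 112, 105 and 116 FPKM in db/db 1 to 4 and 71.9, 68.5, 57.6 and 69.0 FPKM in control 1 to 4, a log2 fold change of 0.67 (limma adjusted p = 0.0013). Echs1, the short-chain hydratase, was nearly constant among controls, at 126 to 132 FPKM, and stood at 181, 181, 180 and 223 FPKM in db/db 1 to 4. Its log2 fold change was 0.55 (limma adjusted p = 0.0024).

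Eci1, the isomerase that moves the double bond of unsaturated acids, and Acaa2, the thiolase that cleaves off acetyl-CoA, had the smallest rises among the members that passed. Acaa2 was the most abundant member, with 755, 705, 738 and 844 FPKM in db/db 1 to 4 and 598, 568, 555 and 633 FPKM in control 1 to 4. The groups did not overlap, and the log2 fold change was 0.37 (limma adjusted p = 0.0208). It no longer passed with median-ratio scaling of the libraries (0.0534 as limma adjusted p), nor without db/db 4, control 1 or control 2 (limma adjusted p = 0.059, 0.0505 and 0.0544). Eci1 stood at 130, 161, 161 and 174 FPKM in db/db 1 to 4 and at 127, 128, 107 and 123 FPKM in control 1 to 4, so that db/db 1 was within a few FPKM of the highest control. The log2 fold change of Eci1 was 0.36 (limma adjusted p = 0.0391), and its adjusted p was above 0.05 in 10 of 15 alternatives, reaching 0.1065 without db/db 4.

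Hadha and Hadhb encode the subunits of the mitochondrial trifunctional protein, which carries out the later steps for long chains, and are read in opposite directions from a shared promoter region on chromosome 5. Only 85 bases lie between their annotated starts, with 2 GC boxes in that gap. The RefSeq starts are 273 bases apart. Hadha stood at 155, 141, 155 and 164 FPKM in db/db 1 to 4 and at 105, 117, 109 and 117 FPKM in control 1 to 4, a log2 fold change of 0.45 (95% interval 0.25 to 0.66, limma adjusted p = 0.00467). Hadhb had 87.8, 95.6, 97.0 and 124 FPKM in db/db 1 to 4 and 84.0, 83.2, 81.9 and 92.6 FPKM in control 1 to 4, a log2 fold change of 0.23 (95% interval −0.03 to 0.49, limma adjusted p = 0.173). The intervals of the pair overlap, and a difference between them was not tested. Of the exon words of Hadhb 76.3% are unique.

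Electron transfer was uneven. Etfdh, the oxidoreductase that hands electrons from the flavoprotein to ubiquinone (chr3:79603788-79629500), stood at 166, 159, 147 and 187 FPKM in db/db 1 to 4 and at 82.4, 91.2, 62.4 and 85.5 FPKM in control 1 to 4. The lowest db/db library was well above the highest control, and the log2 fold change was 1.04 ± 0.13 (SE, limma adjusted p = 0.000295). Etfa and Etfb, the subunits of the flavoprotein itself, did not pass. Etfa had 246, 260, 273 and 326 FPKM in db/db 1 to 4 and 247, 226, 173 and 242 FPKM in control 1 to 4, with a log2 fold change of 0.32 (limma adjusted p = 0.113, and 0.0398 with quantile normalization). Etfb, among the most abundant members, had 456 ± 56.0 FPKM in db/db and 525 ± 76.0 FPKM in control livers, with a log2 fold change of −0.20 (95% interval −0.50 to 0.10). Etfb shares exon words with Gm45233 on the same strand, which was not analysed here, and 50.1% are unique. The ratio of Etfdh to Etfa within a library was 0.539 to 0.675 in db/db and 0.333 to 0.403 in controls, again chosen after the values were seen.

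Of the ketone body genes in the set, neither passed. Acat1, the acetoacetyl-CoA thiolase, stood at 148, 168, 208 and 197 FPKM in db/db 1 to 4 and at 173, 193, 143 and 156 FPKM in control 1 to 4, an interval on the log2 scale of −0.19 to 0.41. Bdh1, which reduces acetoacetate to beta-hydroxybutyrate, had 122 ± 15.8 FPKM in db/db and 108 ± 9.93 FPKM in control livers (limma adjusted p = 0.353). Ucp2, an uncoupling protein of the inner membrane that normal liver expresses mainly in its macrophages, stood at 11.97 FPKM in db/db 2 and at 5.84 to 6.16 FPKM in the other db/db libraries, beside 3.95 to 6.17 FPKM in controls (limma adjusted p = 0.22).

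The other genes of mitochondrial oxidation and ketogenesis, a list of 15 of which 14 were tested, held 8 that rose and none that fell by limma, with 9 higher and 0 lower at an unadjusted p under 0.05. The median log2 fold change of this list was 0.43. Slc25a20, the carrier that exchanges acylcarnitine for carnitine across the inner membrane, had 79.2, 108, 113 and 108 FPKM in db/db 1 to 4 and 67.4, 72.7, 60.2 and 57.4 FPKM in control 1 to 4 (log2 fold change 0.65, limma adjusted p = 0.00479). Other rises were those of Hsd17b10, at 381 FPKM in db/db and 210 FPKM in controls, of Gcdh, at 458 and 311 FPKM, and of Acot2, at 10.4 and 1.11 FPKM. Hsd17b10 is a dehydrogenase of short and branched hydroxyacyl groups, Gcdh breaks down glutaryl-CoA, and Acot2 releases fatty acids from coenzyme A in the matrix. In Acot2 db/db 1 was again low, at 3.41 FPKM beside 9.08 to 17.3 FPKM in the other db/db libraries, and only 2 controls reached 1 FPKM.

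Among 15 tested regulators of the pathway 3 rose and 1 fell, and the median was −0.02. At an unadjusted p under 0.05, 3 were higher and 5 were lower by limma. Ppara, which encodes PPAR-alpha, stood at 14.9, 8.47, 7.07 and 8.48 FPKM in db/db 1 to 4 and at 7.69, 9.17, 9.20 and 10.5 FPKM in control 1 to 4, with a log2 fold change of 0.04 (limma adjusted p = 0.906). Ppargc1a, which encodes PGC-1-alpha, had 2.25, 2.51, 1.41 and 1.80 FPKM in db/db and at most 0.677 FPKM in controls (limma adjusted p = 0.00238). Pdk4, the kinase that spares glucose by blocking pyruvate dehydrogenase, had 1.71, 6.36, 8.12 and 8.19 FPKM in db/db 1 to 4 and 0.452 to 0.771 FPKM in controls (limma adjusted p = 0.00166). Both genes reached 1 FPKM only in db/db libraries, so that they entered the test through the group in which they were high. Sirt3, a deacetylase of mitochondrial enzymes, rose to 64.8 from 43.3 FPKM (limma adjusted p = 0.00422). Lpin1, a phosphatidate phosphatase that also acts as a coactivator of PPAR-alpha, fell to 12.6, 4.54, 2.86 and 3.45 FPKM in db/db 1 to 4 from 21.7 to 39.2 FPKM in controls (limma adjusted p = 0.000624). Fgf21, a hepatic hormone of fasting, was at most 1.17 FPKM in any library and was not tested.

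Peroxisomal oxidation, which shortens very long chains before the mitochondrion takes them over, rose at 13 of 14 genes with a median of 0.71. Examples are Ehhadh, the bifunctional enzyme, at 263 FPKM in db/db and 66.6 FPKM in controls, Hsd17b4, at 227 and 130 FPKM, and Acaa1b, a thiolase, at 1135 and 381 FPKM. The member set had a smaller share of risen genes, 14 of 30, and a lower median, 0.36. A difference between the lists was not tested.

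Other genes of the mitochondrion were read for comparison. Of 16 genes of the TCA cycle, which oxidizes the acetyl-CoA, 7 rose and 1 fell, with a median of 0.30. Suclg2 rose to 185 from 87.2 FPKM, Sdhb to 376 from 224 FPKM and Dlst to 63.3 from 34.6 FPKM. They encode subunits of succinyl-CoA ligase, succinate dehydrogenase and the oxoglutarate dehydrogenase complex. In a list of 13 genes labelled mitochondrial import and outer membrane none rose, also at an unadjusted p under 0.05, and the median was −0.03. This list also holds chaperones of the matrix and carriers of the inner membrane. By limma 2 of its genes fell, Tomm22 to 38.3 from 58.3 FPKM and Hspe1, a matrix chaperone, to 201 from 271 FPKM. The summed level of this last list was 1356 to 1491 FPKM in db/db and 1366 to 1506 FPKM in control libraries, so that the groups overlapped.

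**Figure D4:**
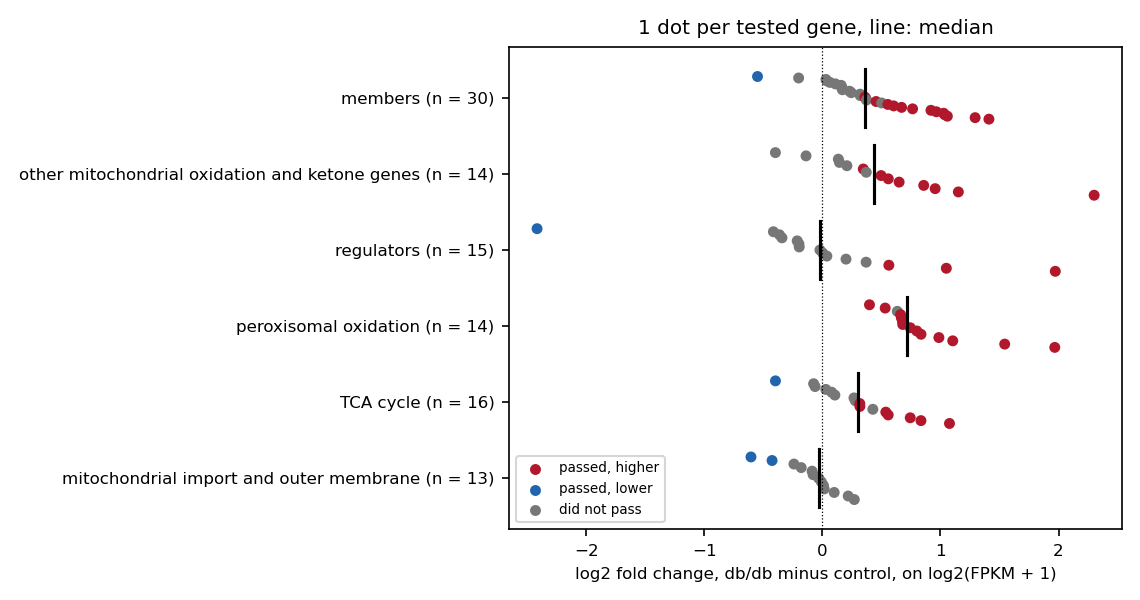
Log2 fold change (x axis, db/db minus control, on log2(FPKM + 1)) of the tested genes of the member set and of 5 other lists (y axis), 1 dot per gene with a line at the list's median and colour for the call. Medians run from 0.71 for peroxisomal oxidation through 0.36 for the members to −0.03 for mitochondrial import and outer membrane.

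Markers of liver cell types moved with the groups in part. By limma none of 13 tested hepatocyte markers rose and 2 fell, with 0 higher and 4 lower at an unadjusted p under 0.05. Their median log2 fold change was −0.27. Ttr fell to 4828 from 7766 FPKM and Serpina1a to 1051 from 2055 FPKM. All hepatocyte markers summed to 39147 to 54006 FPKM in db/db and 49316 to 54185 FPKM in control libraries. Apoa2, named after its values were seen, had the largest part in these sums, with means of 27884.5 and 24999.9 FPKM. Alb was listed at 0 in all 8 libraries, which can be a failed estimate. Of 11 markers of Kupffer cells and macrophages 3 fell, of which Marco reached 1 FPKM in control libraries only, with sums of 136 to 195 FPKM in db/db and 190 to 297 FPKM in controls, and of 8 sinusoidal endothelial markers 3 fell, with sums of 82.2 to 94.1 FPKM and 108 to 135 FPKM. At an unadjusted p under 0.05 these counts by limma were 0 higher and 5 lower for Kupffer cells and macrophages and 1 higher and 4 lower for endothelium. The 1 higher gene is Lyve1, named after its values were seen, whose groups did not overlap (limma adjusted p = 0.0528). The 6 adipocyte markers summed to 2.20 to 8.86 FPKM in db/db and 0.489 to 3.38 FPKM in controls, with Lep and Ucp1 at 0. The 1 that was tested, Retn, rose and reached 1 FPKM in db/db libraries only. Retn made up most of the db/db sums, with a mean of 5.23 FPKM beside 0.108 FPKM in controls. The means of Adipoq, Cfd and Plin1 were lower in db/db, at 0.0946, 0.737 and 0 FPKM beside 0.215, 1.16 and 0.0386 FPKM. Of the tested markers, 1 of 7 of stellate cells fell, namely Des, which reached 1 FPKM in 4 control libraries and 1 db/db library. Marco, Des and Retn thus entered the test through the group in which they were high. Of the rest, none of 2 of cholangiocytes and of 3 of lymphocytes and neutrophils passed by limma, with 0 and 2 lower at an unadjusted p under 0.05. The part of these shifts in the changes of the members was not tested.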

How the data were processed

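The libraries were stranded and made from total RNA of liver after depletion of ribosomal RNA, per the labels. The submitters' processing notes name cutadapt 1.9.3 for trimming, HISAT2 2.0.4 for alignment to mm10, and Cufflinks with Cuffdiff, from which the authors obtained the deposited FPKM for each gene in each library. For the last programs the sources used here state neither version nor annotation release, nor whether strand was used in counting. No counts are kept in the table, and absolute depth is unknown. One row held no values and was left out. An exact 0 can be a failed estimate.

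Groups were taken from the strain in the labels, and replicates were numbered within a group for naming only. Values were transformed to log2(FPKM + 1), filtered at 1 FPKM in at least 4 libraries, and compared with limma 3.58.1 in R 4.3.3 (empirical Bayes moderation with a mean-variance trend, 2-sided, no covariate), with Benjamini-Hochberg adjustment over 9863 genes. The fit was tested on simulated data. Gene positions, exons and shared 31-base words came from GENCODE M21 (mm10), and promoters from RefSeq. Alternatives were a pseudocount of 0.1, no filter, a mean of at least 5 FPKM, median-ratio scaling, quantile normalization, array weights, no trend, leaving out each library, and the thresholds of the study, a logFC of 1.5 whose base is not given, taken as log2 and also as a 1.5-fold change, a reading that was added with the results known.

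The members and all gene lists were chosen with earlier results of these data known, so counts over them are descriptions. All 31 members are reported. Of each other list up to 4 changed genes with the smallest adjusted p are named, together with Slc25a20, Ppara, Ppargc1a, Fgf21 and Pdk4 whatever their values. Some genes that this rule takes are not reported here.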

Additional observations from a re-analysis of the deposited data

Results flagged for a closer look

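In 62 groups of 4 libraries, 1 library stood apart from the others by Dixon's test in 2 cases, and chance alone gives about 5% of groups. Echs1 was at 223 FPKM in db/db 4 while the other db/db libraries lay at 180 to 181 FPKM, a gap of 0.975 of the whole range of the group. Ucp2 was at 11.97 FPKM in db/db 2 while the other db/db libraries lay at 5.84 to 6.16 FPKM, a gap of 0.948 of the range. The cause was not tested in either case.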

How the results depend on the processing

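Over 15 alternatives with the adjusted threshold, between 12 and 16 members were higher and 1 was lower, and the median over the tested members lay between 0.30 and 0.41. With the logFC of 1.5 of the study, whose base is not stated, 10 members were higher and 0 were lower when it was taken as a 1.5-fold change, a reading added after the data were seen, and 0 were higher and 0 were lower when it was taken as log2. Of the 15 called members, 13 kept their call in all 15, and the exceptions were Eci1 and Acaa2. Etfa passed with quantile normalization (limma adjusted p = 0.0398), Cpt1b and Acad12 with array weights (0.0459 and 0.0424), and Acad12 also without control 3 (0.0288). Members near no change turned sign: Acadvl was −0.022 and Cpt1a −0.0293 with median-ratio scaling, Cpt1a was −0.0181 with quantile normalization, and Acsm3 was −0.00057 with array weights. Leaving out 1 library at a time, the count of higher members was 12 to 14, and the log2 fold change lay between −0.0292 and 0.0888 for Acadvl, between −0.088 and 0.132 for Cpt1a and between −0.0901 and 0.155 for Acsm3. The cause was not tested. No paired analysis was possible because the sample titles of the groups share only 1 number. Absolute depth is unknown, so values near 1 FPKM, as in Acsm2, Acad12 and Cpt1b, have no counting error here, and the intervals cover the spread of 4 libraries.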
